A study of Mus musculus with 6 samples.

Results

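Endothelial cells line the blood vessels of the dorsal root ganglion (DRG), the cluster of sensory neuron cell bodies beside the spinal cord. Vessels of these ganglia are unusually leaky for nervous tissue, and their endothelium is known by surface receptors for vascular growth factors, by junction proteins that seal neighbouring cells and by stored clotting factor. The 10 genes described here are Eng, Pecam1, Cdh5, Kdr, Flt1, Cldn5, Tek, Tie1, Vwf and Emcn. They were taken by symbol from a list of endothelial genes that was written around Eng, and all 10 were found among the 24623 genes tested. Eng itself had been named by the study in one of its treatment-related gene groups on these same samples. Its direction is therefore not independent evidence.

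The tissue was L4/5 DRGs of wild-type C57BL/6 mice, all male adults aged 8 to 12 weeks. One group received LBP, a polysaccharide extract of wolfberry, by mouth on 13 consecutive days, and the other received PBS, the phosphate buffered saline in which LBP was dissolved. No nerve injury is described for either group. The deposited treatment protocol names LBP for all 6 samples, and the groups were taken from the titles and treatment labels. Each group had 3 samples, each on a GeneChip Mouse Gene 2.0 ST array, and values are log2 intensities that the authors quantile normalized. Per the methods, DRGs came from 3 groups, each of 3 mice, and the RNA of a group went onto an array. An array may therefore hold RNA pooled from 3 mice, which is not stated outright, and p-values measure the spread between these samples only.

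Endoglin, encoded by Eng on chromosome 2, is a co-receptor for BMP9 and related ligands of the TGF-beta family. Tek and Tie1, both on chromosome 4, encode the receptor of the angiopoietins and its relative. Kdr and Flt1 on chromosome 5 encode VEGF receptors, Kdr the main signalling receptor and Flt1 a receptor that also traps the ligand. Cdh5 on chromosome 8 encodes VE-cadherin, Cldn5 on chromosome 16 the tight junction protein claudin-5, and Pecam1 on chromosome 11 an adhesion molecule of endothelium, platelets and leukocytes. Vwf on chromosome 6 encodes von Willebrand factor, which endothelial cells and platelets store, and Emcn on chromosome 3 encodes the sialomucin endomucin of capillaries and veins.

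Promoters of 7 of the 10 genes were found in the RefSeq table for GRCm38.p6, each running from 250 bases before to 50 bases after the transcript start. The promoters of Eng and Emcn are shown because these genes had the largest positive mean differences of the 10, and that of Kdr because it was the gene with a negative difference whose promoter was found. They lie at chr2:32646345-32646644 (plus strand), chr3:137340828-137341127 (plus strand) and chr5:75978406-75978705 (minus strand). Capitals mark AGGAAG, a form of the site of ETS factors, and the GC box GGGCGG, each on either strand.
Eng: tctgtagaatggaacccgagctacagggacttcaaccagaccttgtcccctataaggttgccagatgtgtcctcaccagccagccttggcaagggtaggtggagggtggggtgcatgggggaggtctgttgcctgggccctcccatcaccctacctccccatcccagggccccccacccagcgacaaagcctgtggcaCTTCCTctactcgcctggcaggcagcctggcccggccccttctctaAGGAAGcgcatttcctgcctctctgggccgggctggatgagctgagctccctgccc
Emcn: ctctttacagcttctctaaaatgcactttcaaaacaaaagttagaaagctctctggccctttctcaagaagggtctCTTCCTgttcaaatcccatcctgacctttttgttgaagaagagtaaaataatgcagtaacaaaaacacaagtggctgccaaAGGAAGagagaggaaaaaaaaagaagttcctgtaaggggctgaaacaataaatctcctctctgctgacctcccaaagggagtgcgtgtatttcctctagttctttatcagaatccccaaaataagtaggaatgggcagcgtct
Kdr: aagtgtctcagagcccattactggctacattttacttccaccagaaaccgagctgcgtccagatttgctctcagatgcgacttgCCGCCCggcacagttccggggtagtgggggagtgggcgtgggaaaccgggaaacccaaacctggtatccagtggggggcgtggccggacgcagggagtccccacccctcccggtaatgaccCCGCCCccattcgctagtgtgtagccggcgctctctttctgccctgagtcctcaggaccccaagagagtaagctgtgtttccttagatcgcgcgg
The letters AGGAAG or their reverse complement occurred in 4 of the 7 promoters (Eng, Emcn, Tie1 and Flt1) and in 35.4% of all 32851 promoters in the table. GGGCGG occurred in Kdr, Flt1 and Cldn5 and in 35.7% of all promoters. TATAAA, the core promoter box, occurred in Flt1 alone of the 7 and in 13.6% of all promoters, and AGATAA, a form bound by GATA factors, in Tek alone of the 7 and in 11.2%. No copies of these motifs overlapped in the sequences printed. A match describes the letters only.

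All 10 genes were measured well within the range of the arrays. Their values ran from 5.91 to 9.22, and the lowest value of every one of them exceeded the lower quartile of each array, which was 5.04 to 5.05. The arrays were alike in scale, with medians of 6.45 to 6.46, but markers of other tissues or cell types differed between arrays of both groups. Deviations were taken from the PBS mean, so that the PBS arrays scatter around 0 by construction. On LBP replicate 2 the median of 10 central nervous system markers lay 1.07 above the PBS mean on the log2 scale, against -0.05 to 0.05 on the other 5 arrays. On LBP replicate 1 the median of 12 fibroblast markers lay at -0.66, against -0.19 to 0.24 elsewhere. On LBP replicate 3 the median of 4 erythroid markers, the ones measured of 9 listed, lay at 0.69, against -0.21 to 0.19 on the other 5 arrays. Skeletal muscle markers varied in both groups, from -1.14 to 0.14 after LBP and from -1.03 to 0.52 after PBS. PBS replicate 2 stood at -1.03, and PBS replicates 1 and 3 at 0.41 and 0.52. Sensory neuron markers such as Scn10a, at 11.65 to 11.96, were bright on every array.

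The endothelial genes differed little between LBP-treated and PBS-treated DRGs. At an adjusted p under 0.05 from limma, 0 of the 10 were called, where 0.00812% of all genes were, and 0 had an unadjusted p under 0.05, where 4.72% of all genes did. Likewise 0 of 10 reached the unadjusted p of 0.005 that the methods set for the LBP signature, which 0.483% of all genes reached. For all 10 the LBP and PBS values overlapped. Over all genes the 2 groups of values did not overlap for 9.63%. Of the 10 log2 fold changes, 8 were positive, against 49.7% of all genes, and their median was 0.10 with a median of -0.0011 over all genes. The list was chosen with earlier results known, and no test was made of this count or of the median. In these bulk samples, a different number of endothelial cells and a different amount of RNA per cell cannot be told apart. The standard errors lay between 0.09 and 0.16. The 95% intervals of the 10 genes together ran from -0.52 to 0.50, or from 0.70-fold to 1.41-fold.

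**Figure D1:**
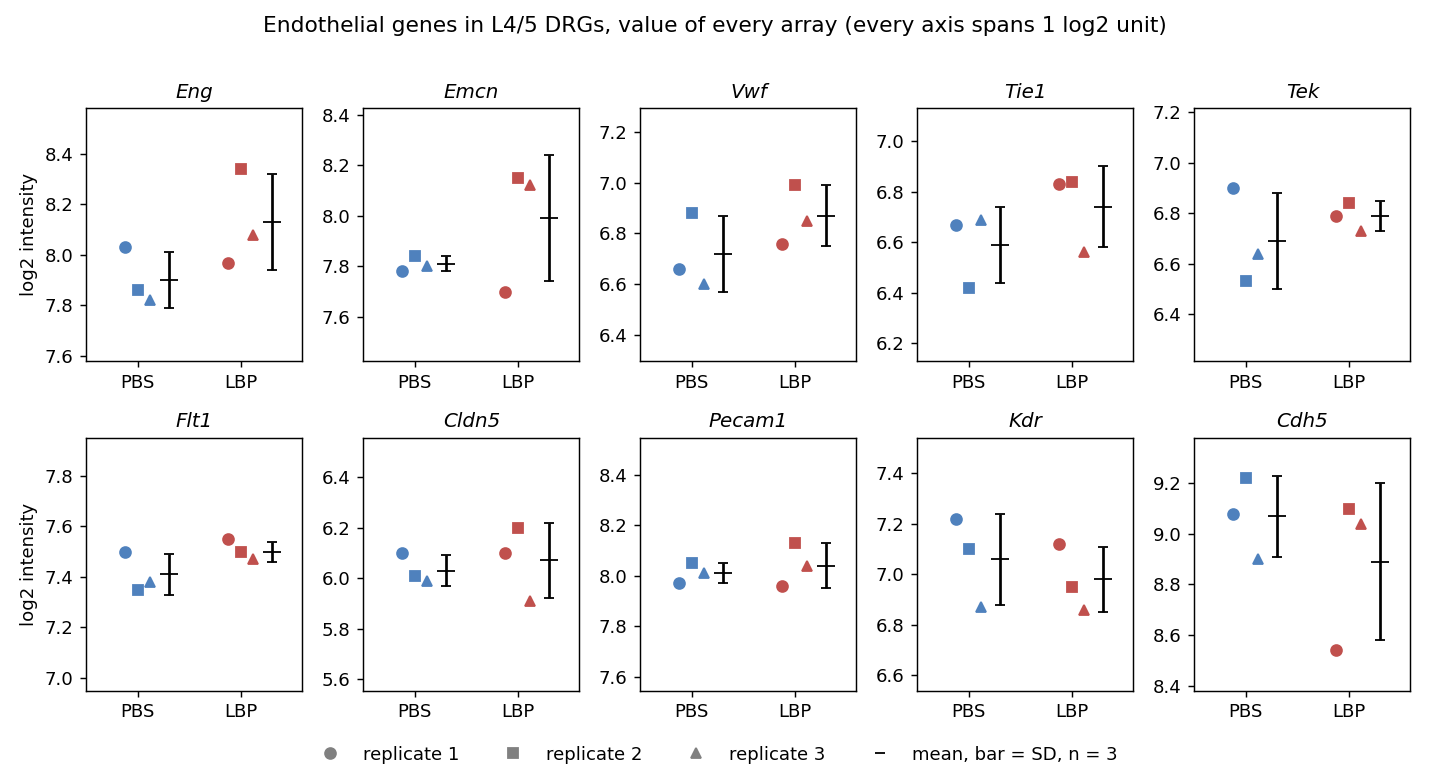
Log2 intensity (y axis, spanning 1 log2 unit in every panel) of the 10 endothelial genes on the 3 PBS (blue) and 3 LBP (red) arrays, with the mean and SD (n = 3) as black bars. LBP replicate 2 (square) was the highest of the 6 arrays for 6 of the 10 genes, and the groups overlapped for all 10.

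Eng had the lowest p of the 10. Its log2 intensity was 7.97, 8.34 and 8.08 on LBP replicates 1, 2 and 3, and 8.03, 7.86 and 7.82 on PBS replicates 1, 2 and 3. LBP replicate 1 lay below PBS replicate 1, so that the groups overlapped, and LBP replicate 2 was the highest of the 6 arrays. The means were 8.13 ± 0.19 (SD, n = 3) and 7.90 ± 0.11 (SD, n = 3). The log2 fold change was 0.23 (standard error 0.12, 95% interval -0.04 to 0.50), with p = 0.0839 and an adjusted p of 0.9996 from limma, while the exact two-sided permutation test over the arrays gave p = 0.2, where 0.1 is the smallest that 3 arrays against 3 allow. Without LBP replicate 2, the array with high central nervous system markers, the change of Eng was 0.13 (adjusted p = 0.852 from limma). Without LBP replicate 1 it was 0.31, with an unadjusted p under 0.05 (adjusted p = 0.966). Without LBP replicate 3, the array with high erythroid markers, it was 0.25 (adjusted p = 0.999). The part of the other tissue in these values was not tested.

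Receptor partners of endoglin differed little between the groups. Acvrl1, the type I receptor ALK1 that signals with endoglin, stood at 6.49, 6.67 and 6.75 on the LBP arrays and at 6.68, 6.71 and 6.74 on the PBS arrays, a change of -0.07 (standard error 0.10). The type II receptors Bmpr2 and Tgfbr2 had changes of 0.05 and -0.08, and Gdf2, which encodes the ligand BMP9, one of 0.04. Id1, a common target gene of this pathway, ran from 7.28 to 7.43 in LBP-treated and from 7.11 to 7.55 in PBS-treated DRGs. Of 22 measured ligands, receptors, SMADs and targets, 11 were higher and 11 lower in the LBP mean (median -0.01). Smad1, which carries the BMP signal to the nucleus, was at 7.85 to 7.96 after LBP and 8.01 to 8.03 after PBS, lower without overlap by a small margin (change -0.11, standard error 0.09). Of the 22 genes, 2 had groups without overlap, where 9.63% of all genes did. Bmp4, a secreted ligand of the family, was the 1 gene of the 22 at an unadjusted p under 0.05, which 4.72% of all genes reached. Its values were 6.88, 7.49 and 7.33 on the LBP arrays and 7.79, 8.46 and 7.60 on the PBS arrays, without overlap. The change of -0.72 (standard error 0.22) had p = 0.00925, an exact permutation p of 0.1 and an adjusted p of 0.9989 from limma. Bmp4 was lowest on LBP replicate 1 and highest on PBS replicate 2, which were also the arrays with the lowest and the highest fibroblast markers. Leaving out 1 array at a time moved the change of Bmp4 between -0.89 and -0.46. Nrp1, Ocln, Pdpn, Lyve1 and Cnn1, described below, had the same lowest and highest arrays. Smad1 and Ctnnb1, also lower without overlap, were lowest on LBP replicate 3. All these genes had an LBP array lowest and a PBS array highest because their groups did not overlap. The share of all genes with this pair of arrays was not counted. Nrp1 hardly varied over the LBP arrays, at 8.97 to 8.99, where the fibroblast medians ran from -0.66 to 0.00. The part of fibroblast RNA in these values was not tested.

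The angiopoietin receptor genes were closer between the groups than Eng. Tie1 stood at 6.83, 6.84 and 6.56 on LBP replicates 1 to 3 and at 6.67, 6.42 and 6.69 on PBS replicates 1 to 3. LBP replicate 3 lay between PBS values, and the log2 fold change was 0.15 (standard error 0.12, p = 0.237 from limma and 0.3 by exact permutation). Tek stood at 6.79, 6.84 and 6.73 after LBP and at 6.90, 6.53 and 6.64 after PBS. All 3 LBP values of Tek lay within the PBS range, and the change was 0.10 (standard error 0.11). Their ligands Angpt1 and Angpt2 each had a change of 0.15, with standard errors of 0.12 and 0.24. Angpt2, the ligand that endothelial cells make themselves, ran from 7.49 to 8.40 over the PBS arrays alone. Ptprb, the phosphatase that dampens Tek signalling, had a change of 0.09. Of 6 genes on the angiopoietin list 0 had an unadjusted p under 0.05, where 4.72% of all genes did, and the median change was 0.04.

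The VEGF receptor genes pointed in different directions, each by less than its error. Flt1 stood at 7.55, 7.50 and 7.47 on the LBP arrays and at 7.50, 7.35 and 7.38 on the PBS arrays, the least variable of the 10 genes after LBP (SD 0.04, n = 3). Its log2 fold change was 0.09 (standard error 0.09). Kdr stood at 7.12, 6.95 and 6.86 after LBP and at 7.22, 7.10 and 6.87 after PBS. These ranges nearly coincide, and the change was -0.08 (standard error 0.12, 95% interval -0.35 to 0.19). The ligand Vegfa averaged 8.92 ± 0.16 in the LBP group and 8.93 ± 0.13 in the PBS group (SD, n = 3). Among 8 VEGF ligands and co-receptors, 6 had a negative change and the median was -0.04. Nrp1, a co-receptor for VEGF and for the axon guidance ligand Sema3a, was at 8.97, 8.99 and 8.98 on the LBP arrays and at 9.28, 9.35 and 9.21 on the PBS arrays. The groups did not overlap, and the change of -0.30 (standard error 0.09) had p = 0.00928, an exact permutation p of 0.1 and an adjusted p of 0.9989 from limma. It lay between -0.33 and -0.26 when 1 array was left out. The study had also named Nrp1 from these samples.

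**Figure D2:**
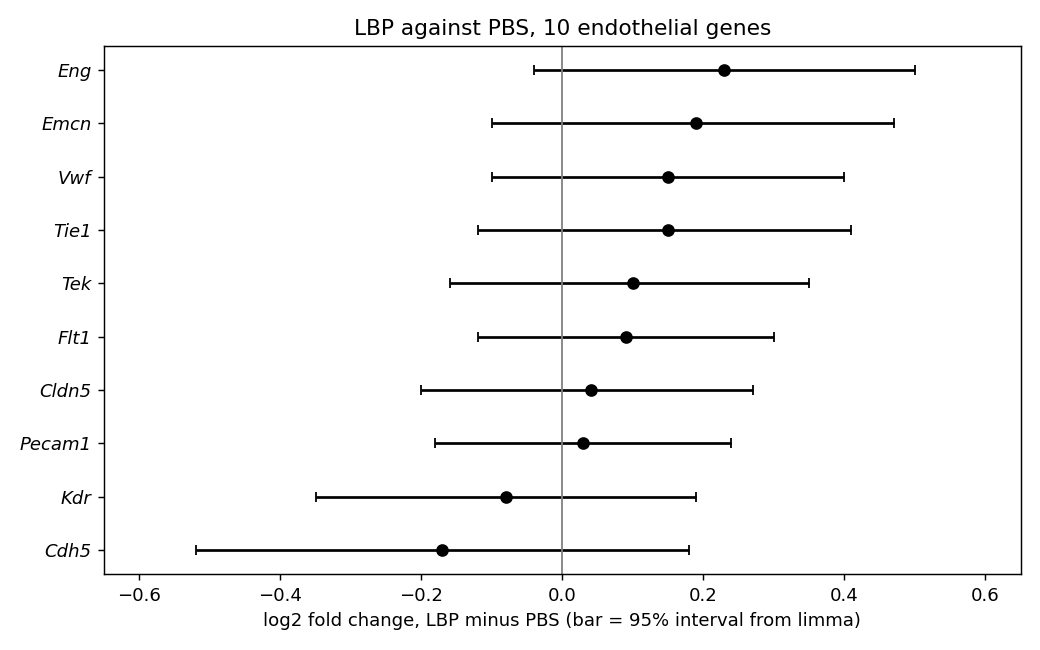
Log2 fold change, LBP minus PBS (x axis), of the 10 endothelial genes in order of size, with 95% intervals from limma (3 arrays per group). Every interval includes 0, from Eng at 0.23 down to Cdh5 at -0.17.

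Among the junction and adhesion genes, Cdh5 had the most negative change of the 10 and the widest spread after LBP (SD 0.31, n = 3). It stood at 8.54, 9.10 and 9.04 on LBP replicates 1 to 3 and at 9.08, 9.22 and 8.90 on PBS replicates 1 to 3. Only LBP replicate 1 lay outside the PBS range. The log2 fold change was -0.17 (standard error 0.16, p = 0.296 from limma and 0.6 by exact permutation) with all arrays and 0.01 without LBP replicate 1, the array with low fibroblast markers. Cldn5 stood at 6.10, 6.20 and 5.91 after LBP and at 6.10, 6.01 and 5.99 after PBS. Its LBP values reached past the PBS range at both ends, with a change of 0.04 (standard error 0.11). Pecam1 had the smallest change of the 10, at 7.96, 8.13 and 8.04 after LBP and 7.97, 8.05 and 8.01 after PBS. Its change was 0.03 (95% interval -0.18 to 0.24). Of 15 genes for junctions and barrier transport, 5 had a positive and 10 a negative change (median -0.04). Of the 15 genes, 2 had groups without overlap, where 9.63% of all genes did. Ocln, which encodes the tight junction protein occludin, was the 1 gene of the 15 at an unadjusted p under 0.05, which 4.72% of all genes reached. It stood at 6.49, 6.66 and 6.73 on the LBP arrays and at 6.82, 7.18 and 6.83 on the PBS arrays, a change of -0.32 (standard error 0.12, p = 0.0296, adjusted p = 0.9996 from limma, and p = 0.1 by exact permutation). Without LBP replicate 1 or PBS replicate 2 the p of Ocln was above 0.05. Ctnnb1, which encodes the beta-catenin bound to VE-cadherin, was at 10.61 to 10.70 after LBP and 10.72 to 10.79 after PBS, lower without overlap by a change of -0.08 (standard error 0.09).

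Vwf and Emcn, which mark larger vessels and capillaries or veins, had positive mean differences with overlapping groups. The difference was smaller than the PBS range for Vwf (range 0.28) and larger for Emcn (range 0.06). Vwf stood at 6.76, 6.99 and 6.85 after LBP and at 6.66, 6.88 and 6.60 after PBS. PBS replicate 2 lay above 2 of the LBP arrays, and the log2 fold change was 0.15 (standard error 0.11). Platelets and megakaryocytes also express Vwf, and 7 of their markers had a median change of 0.04, with list means of 6.70 to 6.88 after LBP and 6.63 to 6.79 after PBS. Emcn stood at 7.70, 8.15 and 8.12 on LBP replicates 1 to 3 and at 7.78, 7.84 and 7.80 on PBS replicates 1 to 3. The PBS values were tightly grouped (SD 0.03, n = 3), while LBP replicate 1 lay below and the other 2 LBP arrays above all of them. The change of Emcn was 0.19 (standard error 0.13, p = 0.177 from limma and 0.4 by exact permutation) with all arrays. It was 0.33 without LBP replicate 1, with an unadjusted p under 0.05 (adjusted p = 0.966), and 0.11 without LBP replicate 2.

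Across the arrays, LBP replicate 2 carried the highest value of 6 of the 10 genes (Eng, Emcn, Vwf, Tie1, Cldn5 and Pecam1), where 20.1% of all genes were highest on that array. LBP replicate 1 carried the lowest value of 3 (Emcn, Pecam1 and Cdh5), where 15.0% of all genes were lowest. The median of the 10 genes relative to each gene's PBS mean was 0.06, 0.16 and 0.03 on LBP replicates 1 to 3 and 0.07, 0.00 and -0.04 on PBS replicates 1 to 3. LBP replicates 1 and 3 therefore lay below PBS replicate 1. Without LBP replicate 2, 6 of the 10 changes were positive and their median was 0.08. Without LBP replicate 3, 8 were positive and their median was 0.12.

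**Figure D3:**
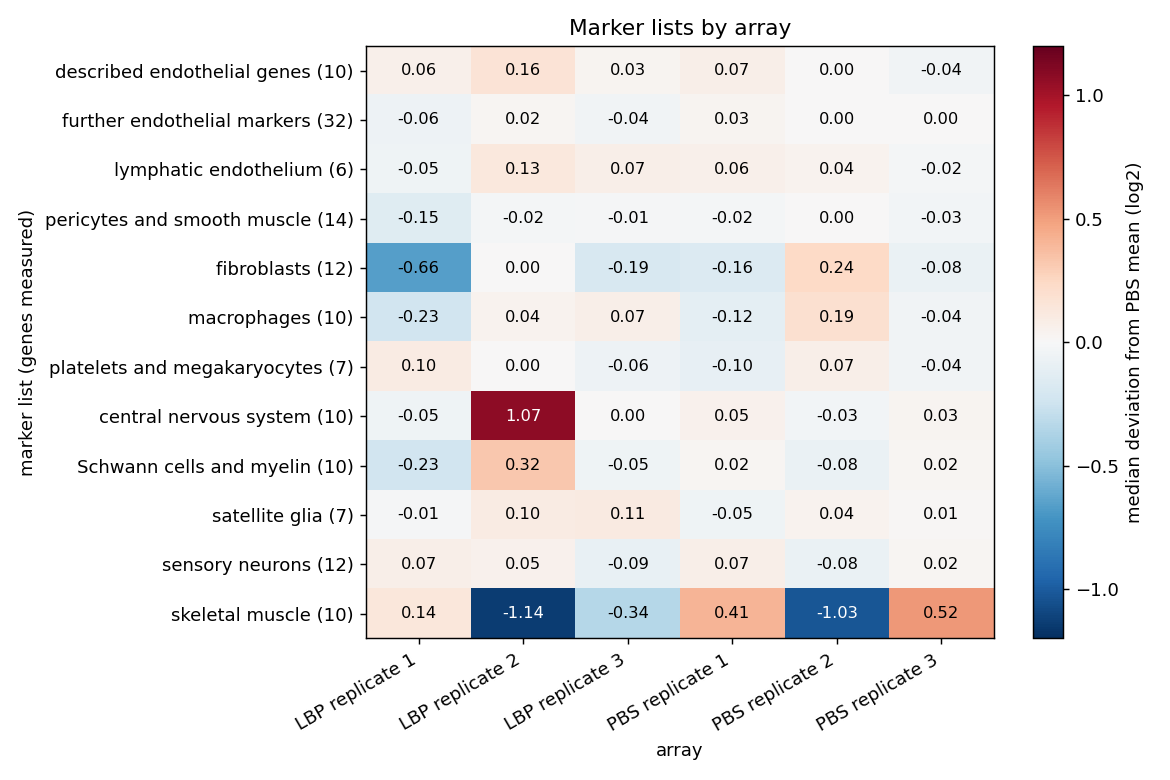
Median deviation from the PBS mean (log2, colour and number) of 12 marker lists (rows, number of genes measured in parentheses) on each of the 6 arrays (columns). The 10 endothelial genes stay between -0.04 and 0.16, while central nervous system markers reach 1.07 on LBP replicate 2 and fibroblast markers -0.66 on LBP replicate 1.

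A wider list of 32 endothelial markers, such as the transcription factor genes Erg and Sox17 and the adhesion gene Esam, showed no shift. Of these, 15 had a positive and 17 a negative change, and the median was 0.00. An unadjusted p under 0.05 was reached by 0 of the 32, and by 4.72% of all genes. Groups did not overlap for 0 of the 32, and for 9.63% of all genes. The lowest p was that of Abcb1a, the drug efflux pump of barrier endothelium, at 8.29 to 8.57 after LBP and 8.55 to 8.77 after PBS (p = 0.0692 from limma and 0.2 by exact permutation). Its change was -0.23 (standard error 0.11). The mean level of the 32 genes lay between 6.88 and 6.94 on the LBP arrays and between 6.90 and 6.92 on the PBS arrays. Brightness differs between probes, so levels of different genes were not compared.

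Genes of arteries and veins differed little between the groups. Of 11 Notch and arterial genes, 9 had a positive change (median 0.07). An unadjusted p under 0.05 was reached by 1 of the 11, and by 4.72% of all genes. This was Unc5b, a netrin receptor of arterial endothelium that the study had also named from these samples. Unc5b stood at 6.52, 6.72 and 6.64 after LBP and at 6.45, 6.25 and 6.47 after PBS, a change of 0.24 (standard error 0.11, p = 0.0488 from limma and 0.1 by exact permutation). Of the 6 fits without 1 array, only that without LBP replicate 1 gave Unc5b a p under 0.05. Of 7 venous genes, 0 had an unadjusted p under 0.05, and Ephb4, the venous ephrin receptor, had the lowest p with a change of 0.17 (p = 0.170 and 0.3 by exact permutation). These 7 genes had a median change of 0.10 and include Vwf.

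Among the 6 lymphatic genes, 3 had a positive and 3 a negative difference in means, and 4 had groups without overlap. Over all genes, 9.63% had groups without overlap. An unadjusted p under 0.05 was reached by 2 of the 6 with a positive and 1 with a negative change, and by 4.72% of all genes. Prox1, which encodes the transcription factor that sets lymphatic identity, stood at 4.94, 5.28 and 5.01 on the LBP arrays and at 4.60, 4.69 and 4.67 on the PBS arrays. Every LBP value lay above every PBS value, and the change of 0.42 (standard error 0.11) had p = 0.00354, an exact permutation p of 0.1 and an adjusted p of 0.9383 from limma. It lay between 0.32 and 0.49 when 1 array was left out. The PBS values of Prox1 and those on LBP replicates 1 and 3 were under the lower quartile of their arrays, so that the gene was dim. Mmrn1, which encodes a multimerin of lymphatic endothelium and platelets, stood at 5.73, 5.85 and 6.03 after LBP and at 5.61, 5.23 and 5.66 after PBS, a change of 0.37 (standard error 0.14, p = 0.0215 and 0.1 by exact permutation). The p of Mmrn1 was above 0.05 without LBP replicate 3 or PBS replicate 2. In contrast, Pdpn, podoplanin of lymphatic endothelium and fibroblasts, was at 8.36, 8.56 and 8.54 after LBP and at 8.66, 8.90 and 8.81 after PBS. Its change was -0.30 (standard error 0.11, p = 0.0178 and 0.1 by exact permutation), with p above 0.05 without LBP replicate 1, PBS replicate 2 or PBS replicate 3. Lyve1, a hyaluronan receptor of lymphatic endothelium and some macrophages, had a change of -0.23 (p = 0.0506 and 0.1 by exact permutation). Flt4, the receptor of the lymphatic growth factor Vegfc, was at 5.97 to 6.17 after LBP and 5.89 to 6.20 after PBS. Reln, which encodes the secreted protein reelin, also overlapped between the groups, with a change of 0.17 (standard error 0.16). Pdpn and Lyve1 were lower without overlap and Prox1 and Mmrn1 higher without overlap, and none of the 6 passed the adjustment over all genes.

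**Figure D4:**
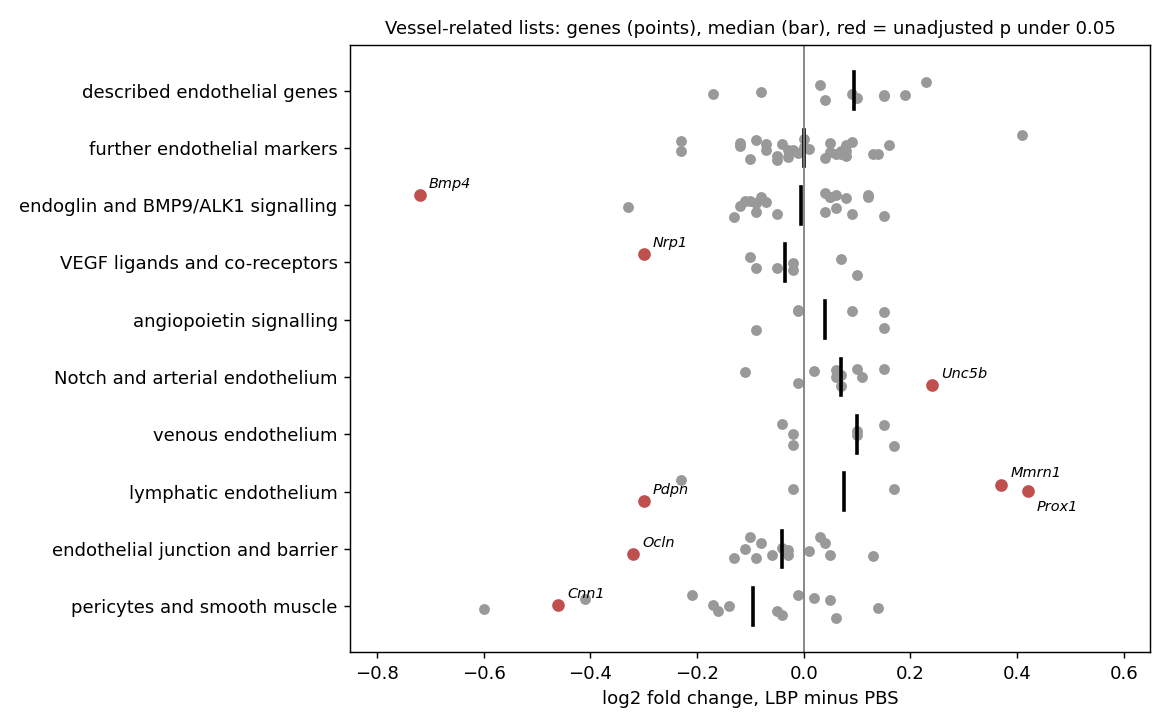
Log2 fold change, LBP minus PBS (x axis), of every gene (points) in 10 vessel-related lists (rows), with each list's median as a black bar. Red points have an unadjusted p under 0.05, and none of them has an adjusted p under 0.05.

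Mural cells, the pericytes and smooth muscle cells that wrap the vessels, had a median change of -0.10 over 14 genes, with 10 negative. An unadjusted p under 0.05 was reached by 1 of the 14, and by 4.72% of all genes. Cnn1, calponin of smooth muscle, stood at 4.58, 5.13 and 5.13 after LBP and at 5.40, 5.55 and 5.26 after PBS, a change of -0.46 (standard error 0.16, p = 0.0157, adjusted p = 0.9989 from limma, and p = 0.1 by exact permutation). Its p was above 0.05 without LBP replicate 1 or PBS replicate 2. The mean level of the mural genes was 7.00 to 7.23 on the LBP arrays and 7.26 to 7.34 on the PBS arrays. Fibroblast markers had 11 of 12 changes negative, a median of -0.24, unadjusted p under 0.05 for Dpt (-0.40, p = 0.00809 from limma and 0.1 by exact permutation) and Col3a1 (-0.43, p = 0.0156 and 0.1 by exact permutation), and list means of 8.22 to 8.82 after LBP and 8.70 to 9.12 after PBS. Macrophage markers, which matter for Eng and Pecam1 because macrophages can express both, had a median change of -0.05, with 8 of 10 negative and 0 at an unadjusted p under 0.05 (lowest for Aif1, change -0.19, p = 0.0807 from limma and 0.1 by exact permutation). Their list means were 6.80 to 7.14 after LBP and 6.87 to 7.17 after PBS. The part of mural, fibroblast and macrophage RNA in the endothelial values was not tested.

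The remaining lists covered other cells of the ganglion and its surroundings. Median changes were 0.03 over 10 Schwann cell and myelin genes, 0.02 over 12 sensory neuron genes and 0.37 over 10 central nervous system genes, each with 0 genes at an unadjusted p under 0.05. They were 0.18 over 4 erythroid genes and -0.44 over 10 skeletal muscle genes, again with 0 genes at that p. LBP replicate 3 alone was high for the erythroid genes. Hbb-b1, a beta-globin gene, stood at 7.08, 6.32 and 8.02 on LBP replicates 1 to 3 and at 6.75 to 7.09 on the PBS arrays. Of 7 satellite glia genes (median 0.09, 5 positive), 3 were higher and 0 lower without overlap, where 9.63% of all genes had groups without overlap. An unadjusted p under 0.05 was reached by 1 of the 7, and by 4.72% of all genes. This was Kcnj10, a potassium channel of these cells, with a change of 0.29 (p = 0.0196 from limma and 0.1 by exact permutation). Of 6 adipocyte genes (median -0.19), Lep, which encodes leptin, had a change of -0.41 (p = 0.00418 and 0.1 by exact permutation). Lep was dim, at 4.10 to 4.39 after LBP and 4.61 to 4.76 after PBS, under the lower quartile of every array. None of the genes in these lists had an adjusted p under 0.05.

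Genes whose values followed Eng most closely over the 6 arrays were Mir199a-1, A930041C12Rik, Cxcl2, 4930447J18Rik and Wnk2. Likeness was the root mean square difference of log2 values after centring each gene on its mean, among the 6085 other genes at least as variable as Eng (SD 0.19 over the arrays). It was 0.047 for Mir199a-1 and 0.062 for Wnk2. Cxcl2, at 4.47 to 5.04, and 4930447J18Rik, at 3.38 to 3.90, were dim, under the lower quartile of every array. Mir199a-1 stood at 5.43, 5.88 and 5.63 after LBP and at 5.44, 5.30 and 5.31 after PBS, with the same highest array as Eng. Only Emcn and Cdh5 among the other 9 genes were as variable as Eng. Their differences from Eng were 0.122 for Emcn and 0.251 for Cdh5 which placed Emcn at rank 156 and Cdh5 at rank 2258 among the 6085. The mean of the other 9 endothelial genes was nearly flat (SD 0.07 over the arrays). Secisbp2 and Cttnbp2nl followed this mean most closely, with differences of 0.015 and 0.016 log2 units among 22901 genes at least as variable. Rank 3 was Vmn2r80, a dim gene at 2.59 to 2.82.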

How the data were processed

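Total RNA of L4/5 DRGs, extracted with TRIzol, was measured on 6 arrays (3 LBP, 3 PBS). The deposited values are log2 intensities, 1 per gene symbol, from 2.02 to 13.75. Per the methods, the authors pre-processed the arrays with the MAS5 method through the expresso function and then quantile normalized them, which forces array distributions together (largest gap between sorted arrays 0.152). MAS5 uses mismatch probes that Gene ST arrays lack, and how this was handled is not given in the sources used here. The genome build is not given either. Scanner intensities and background were not used here, so their effect on precision is not known. The number of arrays limits precision, and markers of other tissue differed between arrays.

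Of 24647 rows, 24 with symbols turned into dates were left out, and 24623 genes were tested. The authors' own fold changes and p-values in the table, and 3 columns comparing single arrays, were not used. Differences (LBP minus PBS) were fitted with limma 3.58.1 in R 4.3.3 (lmFit, eBayes; two-sided; Benjamini-Hochberg adjustment over all genes), and the procedure was tested on simulated data. Unadjusted p-values in the text are from this fit. Exact permutation tests used scipy 1.17.1 in Python 3.11.15. The 10 genes and all marker lists were chosen with earlier results of these data known, so lists are described by counts and medians with no test. All 10 genes were named. In other lists, genes at an unadjusted p under 0.05 (at most the 4 lowest) were named, or else the gene of lowest p. Direct partners were named whatever their values, and Erg, Sox17, Esam, Smad1, Lyve1, Flt4, Reln and Hbb-b1 were added after their values were seen. Alternatives were a replicate block, an intensity trend, robust eBayes, a filter on dim genes, 2 further normalizations, array weights and leaving out each array.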

Additional observations from a re-analysis of the deposited data

How the results depend on the processing

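None of the 10 endothelial genes passed an adjusted p of 0.05 from limma under any alternative, and outside the fits without 1 array none had an unadjusted p under 0.05. The count of all genes at an adjusted p under 0.05 was 2, and 4 with the replicate block, with an intensity trend, with robust eBayes, with dim genes left out and with array weights. The count at p under 0.005 was 119, 183 with the replicate block and 185 with array weights. Correlations of deviations between LBP and PBS samples of the same number were 0.109, -0.035 and 0.084. Those of other pairs ran from -0.243 to 0.172. Whether samples of the same number shared a day or batch is not given. The block changed no call of an endothelial gene. With array weights Kdr turned from -0.08 to 0.0131. Leaving out 1 array gave 1 to 2 genes at an adjusted p under 0.05, 94 to 162 at p under 0.005, 968 to 1561 at p under 0.05 and 4243 to 5748 without overlap, where fewer arrays make non-overlap more frequent. Among the 10 genes it gave 0 to 2 at p under 0.05, 0 to 3 without overlap, 6 to 9 positive changes and a median of 0.06 to 0.13. The 2 were Eng and Emcn, both without LBP replicate 1 (adjusted p = 0.966 from limma for each). Eng ranged from 0.13 to 0.31, Emcn from 0.11 to 0.33, Cdh5 from -0.28 to 0.0065 (positive without LBP replicate 1), Cldn5 from -0.0275 to 0.12 and Pecam1 from -0.0135 to 0.0739 (both negative without LBP replicate 2). The cause of these shifts was not tested.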
